A study of Mus musculus with 21 samples.

Results

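The comparison described here asked whether the difference between CD45+ and CD45- erythroid-sorted spleen cells was the same size in tumor-bearing mice as in neonatal mice. It compared 12 of the 21 RNA sequencing libraries of the study, 3 in each of 4 groups, chosen by their labels alone. The groups were CD45+Ter119+CD71+ and CD45-Ter119+CD71+ cells from the spleens of tumor-bearing C57BL/6 mice and of neonatal C57BL/6 mice. The labels name no tumor, sex, age in days or number of animals per library, and give no treatment or genetic change for any of the 4 groups. Their extraction text speaks of retinas, whereas the tissue label says spleen: of the 10 listed retina genes 1 could be tested, with an interaction of 0.04. They do not say that the 3 libraries of a group came from separate animals, so the p-values reflect only how far these libraries differ from each other, which can be technical. For each gene the CD45 contrast is the mean of log2(value + 1) in CD45+ cells minus that in CD45- cells. The interaction is the contrast in tumor-bearing mice minus the contrast in neonatal mice, so a positive interaction means a larger contrast in tumor-bearing mice.

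Ter119 is a surface antigen of the red cell lineage, CD71 is the transferrin receptor that erythroid precursors use to take up iron, and CD45 is a phosphatase of white blood cells and their progenitors that erythroid cells lose as they mature. Neonatal spleen is a site of active blood formation, and the spleen of adult mice resumes it under stress such as tumor growth. A neonatal spleen also differs from an adult one in its resident macrophages, mast cells and lymphocytes. RNA of any such cell that enters a sort gate is read along with that of the erythroid cells, and in bulk RNA fewer cells of a type cannot be told apart from less RNA per cell.

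The largest negative interactions were those of mast cell and eosinophil granule genes, and the sequences upstream of some of these genes are shown first, because the same short motif recurs in them. The motif GATAA, which reads TTATC on the other strand, is a core of the sites bound by GATA factors, which include the mast cell and progenitor factor Gata2 and the erythroid factor Gata1. Each sequence is the 250 bases before the RefSeq transcript start in build GRCm38.p6, read 5′ to 3′ on the strand of the gene, with every GATAA or TTATC in capitals. The windows lie on the reverse strand at chr14:56062311-56062560 (Mcpt4), chr14:55944676-55944925 (Cma1), chr3:20242182-20242431 (Cpa3) and chr11:87875537-87875786 (Epx), and on the forward strand at chr2:84987965-84988214 (Prg3).
Mcpt4: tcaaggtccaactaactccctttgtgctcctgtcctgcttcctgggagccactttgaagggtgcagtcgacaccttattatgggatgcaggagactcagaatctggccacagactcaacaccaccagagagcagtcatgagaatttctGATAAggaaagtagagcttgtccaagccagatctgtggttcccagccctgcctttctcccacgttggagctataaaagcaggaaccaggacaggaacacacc
Cma1: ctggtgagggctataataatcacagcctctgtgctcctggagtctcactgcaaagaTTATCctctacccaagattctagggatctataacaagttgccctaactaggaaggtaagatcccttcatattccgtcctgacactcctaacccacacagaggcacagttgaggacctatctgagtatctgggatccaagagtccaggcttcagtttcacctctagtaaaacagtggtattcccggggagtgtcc
Cpa3: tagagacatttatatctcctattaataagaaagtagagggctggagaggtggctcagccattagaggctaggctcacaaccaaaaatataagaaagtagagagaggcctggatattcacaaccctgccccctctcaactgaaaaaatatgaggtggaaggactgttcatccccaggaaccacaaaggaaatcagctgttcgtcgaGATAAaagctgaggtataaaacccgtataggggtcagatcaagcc
Prg3: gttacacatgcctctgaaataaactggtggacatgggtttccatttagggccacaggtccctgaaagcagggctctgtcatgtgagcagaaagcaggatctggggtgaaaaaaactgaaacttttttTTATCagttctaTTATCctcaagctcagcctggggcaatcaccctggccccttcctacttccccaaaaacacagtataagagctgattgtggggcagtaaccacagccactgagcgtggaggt
Epx: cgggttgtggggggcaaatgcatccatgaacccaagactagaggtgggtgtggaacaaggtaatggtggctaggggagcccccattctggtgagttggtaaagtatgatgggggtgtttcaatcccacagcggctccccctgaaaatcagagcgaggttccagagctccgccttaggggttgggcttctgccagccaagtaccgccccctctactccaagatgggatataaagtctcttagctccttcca

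The motif, searched on both strands, was found in the upstream windows of 5 of the 7 mast cell, basophil and eosinophil genes that passed the test and matched the RefSeq table (71.4%). It was present in 23.0% of 27025 windows of the same length in that table, and in 15.1% of the 8701 tested genes that matched. Among all genes that passed, it was present in 13 of 47 matched genes with a negative interaction (27.7%) and in 7 of 40 with a positive one (17.5%). Mcpt4, Cma1 and Cpa3 carried it once, and Prg3 and Cd200r3 carried it in 2 places each. The windows of Epx and Mcpt8 did not hold these letters. The 7 genes were picked by the interaction itself. Of the carriers, Cma1, Mcpt4 and Cd200r3 reached a value of 1 in neonatal CD45+ libraries alone and so had to differ. No weight rests on the share of 71.4%. These are matches of letters in a short window, and no binding was measured.

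Of the 3 tested sort antigen genes, Ptprc followed the labels, and the other 2 were lower in CD45+ cells of both statuses. Ptprc, which encodes CD45, had values of 130, 177 and 386 in tumor CD45+ libraries and 101, 86.7 and 188 in neonatal CD45+ libraries, against 1.23 to 2.96 and 1.72 to 3.22 in the CD45- libraries. Tfrc, which encodes CD71, was lower in CD45+ cells of both statuses, although both fractions are labelled CD71+. Its contrast was -3.21 in tumor-bearing and -3.13 in neonatal mice, and its interaction was -0.08 ± 0.66 (SE). The adult globin genes took 4.96% to 6.52% of the summed values in tumor CD45+ libraries and 2.42% to 8.96% in neonatal ones, and 20.8% to 46.2% and 27.5% to 39.2% in the CD45- libraries. Sums per library ran from 240526 to 349261, but read counts are not given, so the depth behind the values is unknown. Tumor CD45+ replicate 3 stood apart from the other 2 tumor CD45+ libraries: B cell genes took 0.400% of its summed values against 0.0837% and 0.111%, tissue macrophage genes 0.403% against 0.0779% and 0.0606%, and calgranulin and annexin genes 3.75% against 8.80% and 9.20%. Results that change without this library are given with and without it. A fit that weights each library gave replicate 3 the lowest weight in every group, anemic mice included, at 0.191 to 0.403.

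Most genes behaved alike in the 2 statuses. Of 11195 tested genes, 6839 passed for the CD45 contrast in tumor-bearing mice (61.1%) and 6710 in neonatal mice (59.9%), and of the 5761 genes that passed in both, 5757 moved in the same direction. Across genes, which are not independent replicates, the 2 contrasts had a Pearson correlation of 0.901. The median interaction over all tested genes was 0.04. The sizes of the contrasts depended on scaling: the tumor contrast passed as positive in 5621 genes and negative in 1218, against 3686 and 2816 with median-ratio scaling and 2617 and 3060 with quantile normalization, and its median moved from 0.75 to 0.10 and -0.08. The neonatal contrast passed as positive in 5554 and negative in 1156 genes, against 3422 and 2663 and 2663 and 2808. The median interaction stayed within 0.1 of 0 under both, at 0.04 and -0.02. An interaction was called for 121 genes (1.08%) in limma at an adjusted p below 0.05, 57 with a larger contrast in tumor-bearing mice (0.509%) and 64 with a smaller one (0.572%). At an unadjusted p below 0.05 there were 1070. The ranges of the contrast over single libraries did not overlap for 659 genes (5.89%), among them all 121. With median-ratio scaling of the libraries the split was 114 larger and 62 smaller, and with a pseudocount of 5 it was 60 and 119. Without tumor CD45+ replicate 3 the number rose to 395, with 198 larger and 197 smaller, and 117 of the 121 were again called. Leaving out neonatal CD45+ replicate 1 or replicate 2 gave 43 each time. Without replicate 3 in every group 10618 genes could be tested, of which 481 had a larger and 249 a smaller contrast. Counts of list members from that fit are to be read beside these numbers. With CD45+ and CD45- libraries of a status paired by replicate number 114 were called, 44 larger and 70 smaller, 90 of them among the 121.

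**Figure D1:**
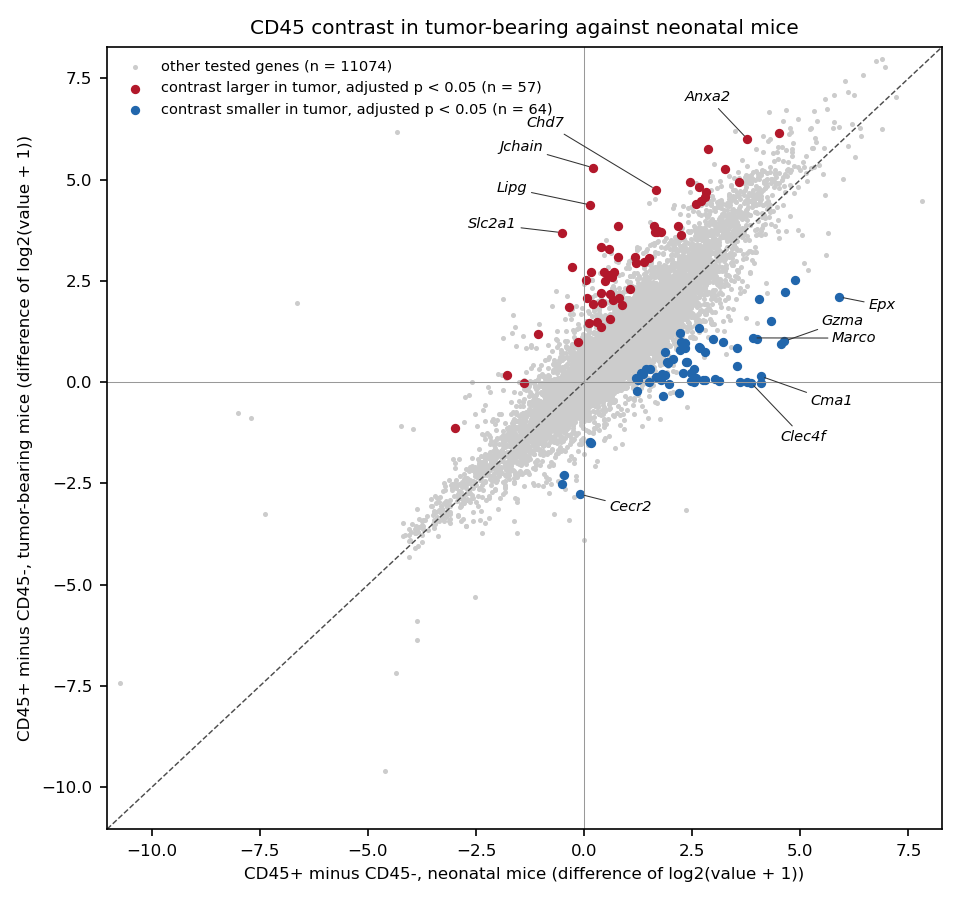
Each point is 1 of 11195 tested genes, with its CD45 contrast (difference of mean log2(value + 1), CD45+ minus CD45-) in neonatal mice on the x axis and in tumor-bearing mice on the y axis; the dashed line marks equal contrasts. Most points lie along the line, the 57 genes with a larger contrast in tumor-bearing mice (red) lie above it, and the 64 with a smaller one (blue) lie below it, many of them near 0 on the tumor axis.

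The test could detect only large interactions. The smallest that passed was 0.98 on the log2 scale, and the median half-width of the 95% interval was 0.938. For 2372 genes (21.2%) the whole interval lay within 1 log2 unit of 0. The absolute interaction exceeded 4 without passing in 7 genes, 6 of them histone genes and the other mt-Nd6 (8.60 ± 5.07, SE), whose libraries within a group ranged from 0 to 1246 in tumor CD45- cells.

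The interactions mostly lay on the CD45+ side of the gate. Of the 64 genes with a smaller contrast in tumor-bearing mice, 47 were lower in tumor than in neonatal CD45+ cells with no difference passing between the CD45- groups, 11 were lower on both sides, 5 were higher in tumor than in neonatal CD45- cells only, and 1 passed on neither side. Of the 57 with a larger contrast, 38 were higher in tumor CD45+ cells only, 16 were lower in tumor CD45- cells only, 1 passed on both sides and 2 on neither. As background, 6.61% of all tested genes differed between tumor and neonatal CD45+ cells and 2.54% between the CD45- groups. Between the CD45- groups 45 genes were higher and 239 lower in tumor-bearing mice, against 101 and 248 with quantile normalization. Since the interaction is by definition the CD45+ difference minus the CD45- difference, these counts describe the interaction and are no separate test. The low-value filter was passed through neonatal CD45+ libraries alone by 22 of the 121 genes and through tumor CD45+ libraries alone by 4. Those 26 genes had to differ, so no weight rests on their number, and 95 genes had values of at least 1 in more than 1 group. With no filter all 121 were called again.

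**Figure D2:**
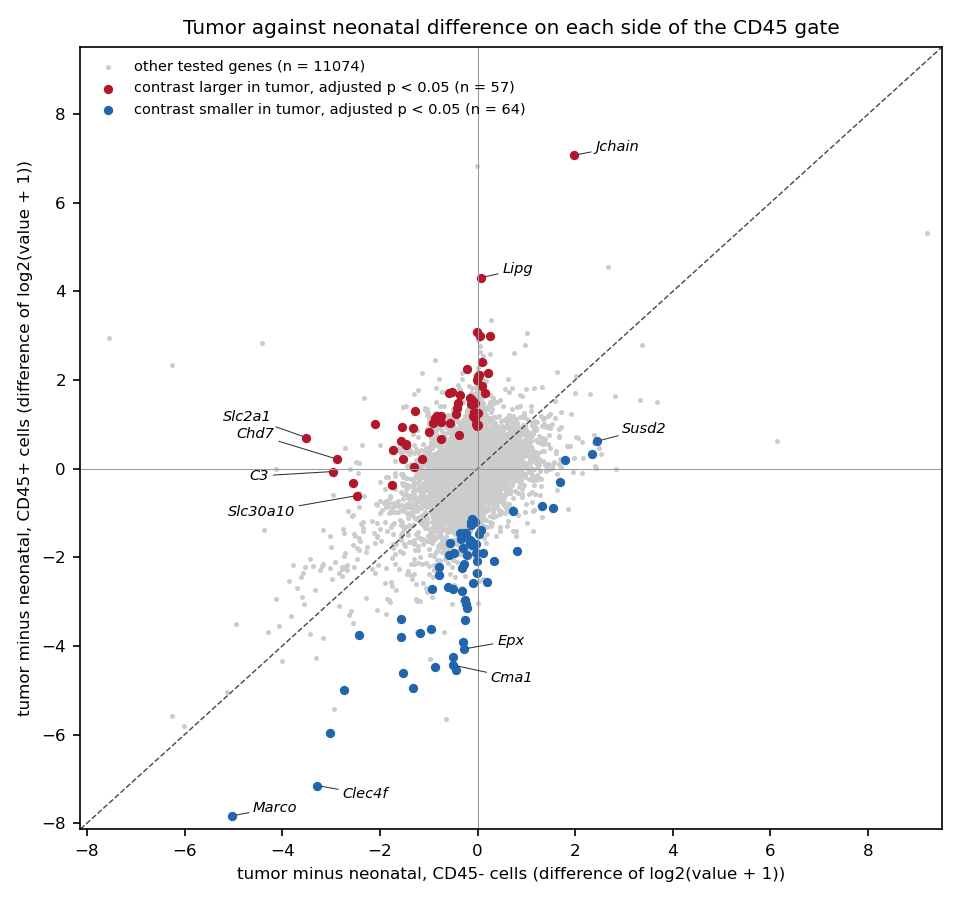
Each point is a tested gene, with the tumor minus neonatal difference of log2(value + 1) in CD45- cells on the x axis and in CD45+ cells on the y axis; the interaction is the vertical distance from the dashed line. Marco and Clec4f are low on both axes and lower on the CD45+ axis, Epx and Cma1 are low on the CD45+ axis only, and Slc2a1, Chd7 and C3 are low on the CD45- axis only.

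Mast cells, basophils and eosinophils are granulocytes that store proteases, peroxidases and cationic proteins in granules. Of the 16 tested genes of this list, 8 had a smaller contrast in tumor-bearing mice and none a larger one. Over all tested genes these shares were 0.572% and 0.509%. The median interaction of the list was -1.92, against 0.04 over all genes. The 8 were Mcpt4, Cma1, Tpsb2, Cpa3, Mcpt8, Epx, Prg3 and Cd200r3, and 4 of them passed the filter through neonatal CD45+ libraries alone. The list took 0.330% to 0.705% of the summed values in neonatal CD45+ libraries and 0.0240% to 0.0618% in tumor CD45+ libraries, and at most 0.00478% in any CD45- library of the 2 statuses. Without tumor CD45+ replicate 3 the same 8 genes were called. Without replicate 3 in every group 12 genes of the list could be tested, of which 5 had a smaller contrast (Prg2, Prg3, Epx, Cpa3 and Mcpt8) and 2, the eosinophil ribonucleases Ear1 and Ear2, a larger one. Of all 10618 genes of that fit 249 had a smaller and 481 a larger contrast. Cma1, Mcpt4, Tpsb2 and Cd200r3 reached a value of 1 in neonatal CD45+ libraries alone, so the filter of 3 libraries left them out of this fit. The median of the remaining 12 genes was -0.22, against 0.13 over all genes. It covers other genes than the median of the 16 and cannot be set against it. With CD45+ and CD45- libraries of a status paired by replicate number, Prg2 was called in addition (adjusted p = 0.0331).

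Among the 4 groups the mast cell proteases were highest in neonatal CD45+ cells. Cma1, which encodes the chymase mast cell protease 5, had values of 20.4, 12.2 and 47.3 in neonatal CD45+ libraries, 0, 0.12 and 0.214 in tumor CD45+ libraries, 0.315 to 0.576 in neonatal CD45- libraries and 0 in the 3 tumor CD45- libraries. Its interaction was -3.93 ± 0.44 (SE, adjusted p = 0.000142). Cma1, Mcpt4, Tpsb2 and Cd200r3 reached a value of 1 in neonatal CD45+ libraries alone and so had to differ, and their values describe the libraries. Mcpt4, another chymase, had values of 10.8, 10.8 and 89.9 in neonatal CD45+ libraries and at most 0.0098 in tumor CD45+ libraries, with an interaction of -4.10 ± 0.71 (adjusted p = 0.00606), which did not pass with a pseudocount of 5 (adjusted p = 0.0713). Tpsb2, the tryptase mast cell protease 6, stood at 16, 8.44 and 42.6 in neonatal CD45+ libraries and was listed at 0 in all 6 tumor libraries. In each of these genes neonatal CD45+ replicate 3 was the highest library. Cpa3, the carboxypeptidase of mast cells and basophils, was present in both statuses: 19.8, 14.5 and 59.1 in neonatal and 2.14, 2.25 and 2.24 in tumor CD45+ libraries, with an interaction of -2.83 ± 0.49 (adjusted p = 0.00586). Mast cell proteases belong to families of similar sequence, so their values are uncertain where reads fit more than 1 member.

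Some basophil and eosinophil granule genes, Epx, Prg3, Prg2 and Mcpt8, followed the same direction with more signal left in tumor-bearing mice. Without replicate 3 in every group, Ear1 (1.85) and Ear2 (3.67) of the same list were called in the other direction. Epx, the eosinophil peroxidase, had values of 56.1, 114 and 62.6 in neonatal CD45+ libraries and 5.74, 6.19 and 0.822 in tumor CD45+ libraries, with at most 0.365 in CD45- libraries. Its contrast was 5.90 in neonatal and 2.11 in tumor-bearing mice, and both passed. The interaction was -3.79 ± 0.62 (adjusted p = 0.00381). Prg3, an eosinophil granule protein related to major basic protein, stood at 21.6, 34.2 and 33.1 in neonatal and 1.09, 1.51 and 0.530 in tumor CD45+ libraries (interaction -3.62 ± 0.36, adjusted p = 7.69e-05). Prg2, major basic protein itself, was at 633, 1261 and 1095 against 73.3, 96.5 and 14.9, but its interaction of -3.33 ± 0.91 did not pass (adjusted p = 0.102). Mcpt8, a basophil protease, stood at 31.2, 45.9 and 30.7 in neonatal and 8.20, 6.39 and 4.28 in tumor CD45+ libraries (interaction -2.35 ± 0.37, adjusted p = 0.00303). The list was not uniform: Hdc, the histidine decarboxylase that makes histamine, had an interaction of -0.03 ± 0.85, the eotaxin receptor Ccr3 -0.01 ± 0.81, and the eosinophil ribonuclease Ear6 1.04 ± 0.82, none of which passed.

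Gata2, the transcription factor of blood progenitors and mast cells, moved in the same direction as these genes. Its values were 4.64, 7.71 and 9.90 in neonatal CD45+ libraries, 0.701, 0.769 and 1.37 in tumor CD45+ libraries and at most 0.268 in CD45- libraries of either status. The neonatal CD45+ libraries were above all others, and the interaction was -2.07 ± 0.31 (adjusted p = 0.00209). Of the 12 tested early progenitor genes Gata2 was the only one called, and the median interaction of that list was -0.02. When tumor CD45+ replicate 3 was left out, the stem cell antigen gene Cd34 (-1.26) and the transcription factor gene Erg (1.65) were called too, and the median was -0.22. Erg was also called with libraries paired within status (1.47, adjusted p = 0.0331). Alox15, the arachidonate lipoxygenase found in eosinophils and resident macrophages, had values of 18.8, 14.4 and 21.3 in neonatal and 0.630, 2.23 and 0.874 in tumor CD45+ libraries (interaction -2.92 ± 0.36, adjusted p = 0.000316).

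Resident macrophages of spleen and liver engulf aged red cells and carry scavenger receptors that circulating monocytes lack. Of the 11 tested tissue macrophage genes, 4 had a smaller contrast in tumor-bearing mice and none a larger one, with a median interaction of -1.21. Over all tested genes 0.572% had a smaller and 0.509% a larger contrast, with a median of 0.04. The list took 0.632% to 1.08% of the summed values in neonatal CD45+ libraries, 0.0606% to 0.403% in tumor CD45+ libraries, 0.0520% to 0.0722% in neonatal CD45- libraries and 0.0108% to 0.0353% in tumor CD45- libraries. Between the CD45- groups 6 of these 11 genes were lower in tumor-bearing mice, against 0 of the 16 mast cell, basophil and eosinophil genes. Of all 11195 tested genes 239 were lower there. The part of macrophage content in each of these results was not tested.

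Clec4f, a lectin of liver Kupffer cells, had values of 220, 130 and 97.9 in neonatal CD45+ libraries and 16.8, 10.4 and 3.66 in neonatal CD45- libraries, and was listed at 0 in 5 of 6 tumor libraries, the other holding 0.0280. The interaction was -3.87 ± 0.51 (adjusted p = 0.000511). Marco, a scavenger receptor that binds bacteria and is typical of macrophages of the splenic marginal zone, was the most abundant of these genes. It stood at 554, 578 and 959 in neonatal CD45+ libraries, 45.2, 41.4 and 46.2 in neonatal CD45- libraries, 2.24, 1.10 and 2.83 in tumor CD45+ libraries and 0.288 to 0.549 in tumor CD45- libraries. The 4 groups did not overlap. Marco was lower in tumor than in neonatal mice by both gates, with log2 differences of -7.83 in CD45+ and -5.02 in CD45- cells, and the interaction was -2.81 ± 0.49 (adjusted p = 0.0065). Vsig4, a complement receptor, stood at 61.1, 55.5 and 83.8 in neonatal CD45+ libraries and at 0, 0 and 0.230 in tumor CD45+ libraries (interaction -2.94 ± 0.42, adjusted p = 0.00115).

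Timd4, a receptor for phosphatidylserine on dying cells, was the weakest of the 4: 33.4, 28 and 38.8 in neonatal against 0.478, 0.826 and 4.47 in tumor CD45+ libraries, with an interaction of -2.23 ± 0.52 (adjusted p = 0.0432). The highest tumor value of Timd4 was that of replicate 3. Its call was kept in 2 of 12 fits that left out 1 library, those without tumor CD45+ replicate 3 or neonatal CD45- replicate 2, and the highest adjusted p was 0.127. Pseudocount 0.5, the filter at 5, median-ratio scaling, omission of haemoglobin genes and the fit of the 12 libraries alone were among the other settings that ended the Timd4 call. Cd5l, an abundant secreted macrophage protein, did not pass (interaction -0.68 ± 0.53, adjusted p = 0.873). It was high in both neonatal gates, at 374, 405 and 578 in CD45+ and 26.9 to 32.5 in CD45- libraries, against 19.2 to 55.4 and 2.11 to 2.71 in tumor-bearing mice. C1qa, a complement subunit made by macrophages, did not pass either (interaction -1.21 ± 0.96, adjusted p = 0.887).

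Other genes with a smaller contrast in tumor-bearing mice and a fall on both sides of the gate included the folate receptor gene Folr2 and the scavenger receptor gene Colec12, both known from resident macrophages. Folr2 had values of 16.9, 35.7 and 23.2 in neonatal CD45+ libraries and 0, 0 and 0.108 in tumor CD45+ libraries (interaction -3.09 ± 0.35, adjusted p = 0.000172). Colec12 stood at 14.9, 10.3 and 14.1 against 0.0737, 0 and 0.335 (interaction -2.68 ± 0.28, adjusted p = 9.87e-05). Chosen after its values were seen, Cdh5, the adhesion protein VE-cadherin of endothelial cells, had values of 36.4, 35.8 and 37.2 in neonatal CD45+ libraries and 4.61 to 6.92 in neonatal CD45- libraries, against at most 0.382 in any tumor library (interaction -2.26 ± 0.28, adjusted p = 0.000281). In all 3 genes the neonatal CD45+ libraries were above all others.

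Single members of lymphoid, fetal and cytokine lists were also called. Gzma, the granzyme A protease of cytotoxic cells, had values of 55.0, 34.7 and 128 in neonatal CD45+ libraries and 0.573, 0.588 and 2.54 in tumor CD45+ libraries (interaction -3.62 ± 0.56, adjusted p = 0.00262). It was the only called gene of the 28 tested T and NK cell genes, of which 22 had a positive and 6 a negative interaction, with a median of 0.88. Without tumor CD45+ replicate 3 the median was 0.42 and Gzmb, another granzyme, was also called (-2.32). Without replicate 3 in every group 6 genes of the list had a larger and 2 a smaller contrast. Over all 10618 genes of that fit these counts were 481 and 249. Igll1, a component of the surrogate light chain of B cell precursors, stood at 9.93, 4.9 and 4.13 in neonatal CD45+ libraries and at 0.0561, 0 and 0 in tumor CD45+ libraries (interaction -2.45 ± 0.32, adjusted p = 0.000446), and it too reached a value of 1 in no other group. The other 2 tested B cell precursor genes did not pass.

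Igf2bp3, a fetal RNA-binding protein that keeps embryonic transcripts stable, had values of 17.1, 20.9 and 16.1 in neonatal and 1.72, 0.516 and 0.410 in tumor CD45+ libraries, and 1.39 to 2.58 against 0 in the CD45- libraries. Its interaction of -1.82 ± 0.37 (adjusted p = 0.0204) was kept in 5 of 12 fits that left out 1 library, with a highest adjusted p of 0.0711 without neonatal CD45+ replicate 2. It was lost without tumor CD45+ replicate 2, neonatal CD45+ replicate 1 or 2, neonatal CD45- replicate 1 or any tumor CD45- replicate, and also with a pseudocount of 0.5, median-ratio scaling or the fit of the 12 libraries alone. The other 6 tested fetal and imprinted genes did not pass, and without replicate 3 in every group Igf2 was called with a larger contrast.

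Il10, an anti-inflammatory cytokine, was the only called gene with a smaller contrast among 20 tested immunosuppressive mediators. Its values were 7.80, 9.58 and 9.34 in neonatal CD45+ libraries and 0.793, 1.31 and 1.20 in tumor CD45+ libraries (interaction -1.92 ± 0.42, adjusted p = 0.0321). The contrast itself passed in both statuses, at 2.98 and 1.06. The Il10 call was kept in 2 of 12 fits that left out 1 library, those without tumor CD45+ replicate 3 or neonatal CD45- replicate 1, and the highest adjusted p was 0.1 without neonatal CD45- replicate 3. It was also lost with a pseudocount of 0.5, the filter at 5, median-ratio scaling or quantile normalization, and with libraries paired within status (adjusted p = 0.0643 for the Il10 interaction). None of the 18 tested inflammatory cytokine and NF-kB genes passed, although 16 had a negative interaction and the median was -0.55. Examples are Il6 at -2.57 ± 0.72 (adjusted p = 0.113) and the NF-kB inhibitor gene Tnfaip3 at -2.41 ± 0.76 (adjusted p = 0.178). Without replicate 3 in every group 3 of them were called, Il1a (-1.67), Tnfaip3 (-2.52) and Relb (-1.72), all with a smaller contrast in tumor-bearing mice. That fit called 249 of all 10618 genes as smaller.

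A pair of the largest negative interactions fell outside the lists. Dmpk, the kinase gene whose repeat expansion causes myotonic dystrophy, had values of 65.9, 54.6 and 55.2 in neonatal CD45+ libraries and 1.12 to 2.86 in 5 of the 6 tumor libraries, the other standing at 0.947. The interaction was -3.60 ± 0.43 (adjusted p = 0.000231). Adgb, which encodes the globin-related protein androglobin, stood at 13.4, 8.66 and 18.5 in neonatal CD45+ libraries and at 0.281 to 0.370 in tumor CD45+ libraries (interaction -3.15 ± 0.29). Its adjusted p was 5.77e-05, but Adgb reached a value of 1 in neonatal CD45+ libraries alone and so had to differ.

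A few genes with a smaller contrast were higher in tumor than in neonatal CD45- cells, and those named here were chosen after their values were seen. Cacna1c, a pore subunit of L-type calcium channels, had values of 5.31, 8.25 and 7.61 in tumor CD45- libraries and at most 0.950 in the other 9 libraries. Its contrast was -2.52 in tumor-bearing mice, which passed, and -0.51 in neonatal mice, which did not. The interaction was -2.01 ± 0.44 (adjusted p = 0.0318), kept in 4 of 12 fits that left out 1 library, with a highest adjusted p of 0.106 without neonatal CD45+ replicate 1. It was lost with a pseudocount of 0.5 or the filter at 5, and held without tumor CD45+ replicate 2 or 3, tumor CD45- replicate 1 or neonatal CD45+ replicate 3. Fsd1l stood at 4.21, 2.85 and 2.50 in tumor CD45- libraries and at most 0.569 in the other 9 (interaction -1.61 ± 0.26, adjusted p = 0.00303). Cecr2, part of a chromatin remodelling complex, was spread over all 4 groups: 63.0, 46.3 and 32.8 in tumor CD45- libraries, 5.15, 6.18 and 6.32 in tumor CD45+ libraries, and 18.9 to 39.7 in both neonatal groups. In neonatal mice Cecr2 hardly differed between the gates (contrast -0.09), in tumor-bearing mice it was lower in CD45+ cells (contrast -2.77), and the interaction was -2.68 ± 0.42 (adjusted p = 0.00262). Fsd1l and Cecr2 were called in all 12 fits that left out 1 library.

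**Figure D3:**
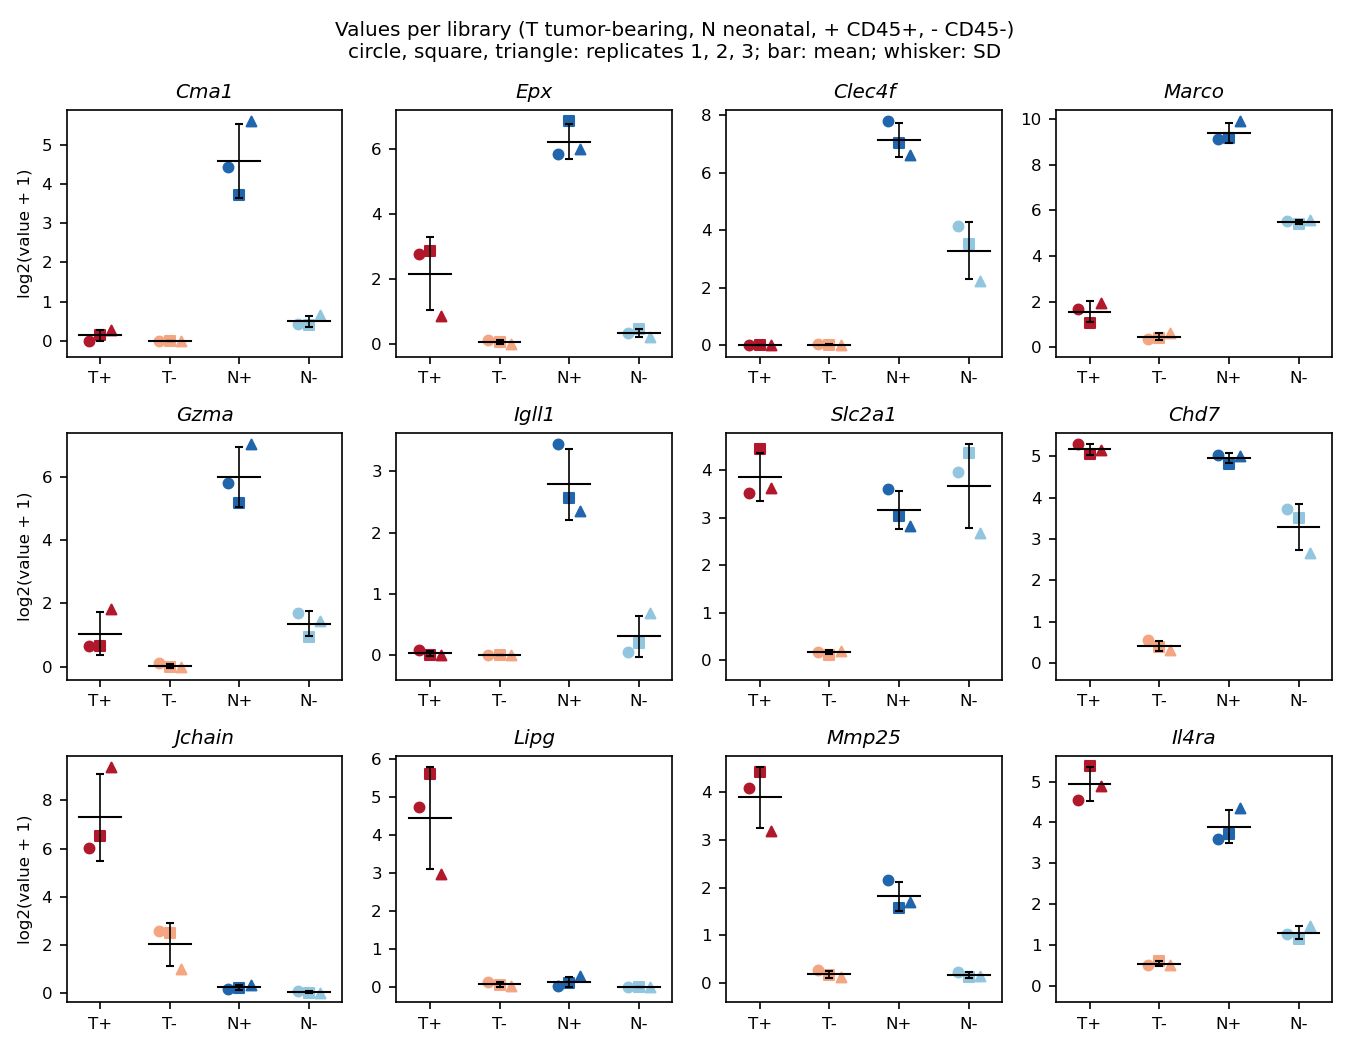
Values of 12 genes in the 12 libraries on a log2(value + 1) scale, for tumor-bearing (T) and neonatal (N) mice and CD45+ and CD45- cells; symbols are the 3 replicates, bars the mean and whiskers the SD. Cma1, Clec4f and Igll1 are near 0 in both tumor groups, Slc2a1 is near 0 in tumor CD45- libraries only, and Jchain and Lipg are near 0 in both neonatal groups.

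In the other direction, 16 of the 57 genes with a larger contrast were lower in tumor than in neonatal CD45- cells only. Of these, Slc2a1 and Chd7 were almost missing from tumor CD45- cells. Slc2a1 encodes GLUT1, the glucose transporter that human red cells carry in abundance and adult mouse red cells lack. Its values were 14.7, 19.6 and 5.43 in neonatal CD45- libraries and 0.127, 0.0899 and 0.156 in tumor CD45- libraries. The CD45+ libraries overlapped, at 10.4, 20.8 and 11.3 in tumor-bearing and 11.1, 7.22 and 6.12 in neonatal mice. The contrast was 3.69 in tumor-bearing mice and -0.52 in neonatal mice, where it did not pass. The interaction was 4.21 ± 0.51 (adjusted p = 0.000231) and was called in all 12 fits that left out 1 library. Slc2a1 was the only called member of 18 tested glycolysis genes, whose median interaction was 0.91. Without tumor CD45+ replicate 3 there were 4, with Gpi1 (1.83), Pgam1 (3.55) and Pkm (2.23) added, all glycolytic enzymes. Without replicate 3 in every group there were 10, all with a larger contrast, in a fit that called 481 of 10618 genes as larger. With libraries paired within status there were 2, Slc2a1 and Pkm. In tumor CD45+ replicate 3 glycolysis genes took 0.324% of the summed values. They took 0.861% and 0.793% in the other tumor CD45+ libraries and 0.378% to 0.499% in neonatal CD45+ libraries.

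Chd7, a chromatin remodeller mutated in CHARGE syndrome, showed the same layout. It stood at 12.1, 10.4 and 5.37 in neonatal CD45- libraries and 0.245 to 0.468 in tumor CD45- libraries, while the CD45+ libraries ran from 32.3 to 38.7 in tumor-bearing and 27.1 to 31.9 in neonatal mice. The contrast passed in both statuses, at 4.76 and 1.66, and the interaction was 3.10 ± 0.34 (adjusted p = 0.000142), called in all 12 fits that left out 1 library. Pde2a, a phosphodiesterase that breaks down cyclic nucleotides, stood at 2.24, 2.63 and 4.25 in neonatal and 0.0843 to 0.369 in tumor CD45- libraries, with overlapping CD45+ libraries (interaction 2.14 ± 0.36, adjusted p = 0.00465). With a pseudocount of 5 the Pde2a call was lost (adjusted p = 0.066). Tspan32, a tetraspanin of blood cells, was as high in neonatal CD45- cells (13.5, 9.67 and 16.6) as in CD45+ cells, and lower only in tumor CD45- libraries (2.15, 3.39 and 6.57). Its interaction was 2.19 ± 0.42 (adjusted p = 0.0127), lost without neonatal CD45+ replicate 2 (adjusted p = 0.0586). Sptbn1, a beta spectrin, was named after its values were seen: 2.82, 1.99 and 4.71 in neonatal and 0.381 to 0.575 in tumor CD45- libraries, with an interaction of 2.00 ± 0.36 (adjusted p = 0.00783) that was not called with a pseudocount of 5.

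The remaining genes of this kind rested on less stable calls. C3, the central complement protein, made by liver and myeloid cells, had values of 9.92, 7.5 and 29.4 in neonatal CD45- libraries and 0.638 to 1.06 in tumor CD45- libraries, and overlapped between the CD45+ groups (70.4 to 116 and 88.9 to 124). Its interaction was 2.89 ± 0.64 (adjusted p = 0.032), kept in 2 of 12 fits that left out 1 library, those without tumor CD45+ replicate 3 or neonatal CD45- replicate 2, with a highest adjusted p of 0.104. A pseudocount of 5, quantile normalization and the pairing of libraries within status (adjusted p = 0.0691 for the C3 interaction) ended it too. Hepatocyte genes were lower in tumor-bearing mice on both sides of the gate. Of 15 genes, 14 passed as lower in tumor CD45- cells and 11 in tumor CD45+ cells, where C3 overlapped. Of all 11195 tested genes 239 were lower in tumor CD45- cells and 494 in tumor CD45+ cells. The hepatocyte genes took 0.0451% to 0.356% of the summed values in neonatal CD45- libraries and 0.00128% to 0.00431% in tumor CD45- libraries. In neonatal CD45+ libraries they took 0.1% to 0.232%, against 0.0136% to 0.0750% in tumor CD45+ libraries. None of the 15 hepatocyte genes was at 0 in any neonatal library, and 3 to 14 were at 0 in each tumor library. Albumin (Alb) itself stood at 72.3, 52.3 and 342 in neonatal CD45- libraries, so the highest C3 value and the highest Alb value were in the same library, replicate 3. The part of this content in the C3 result was not tested. None of the 15 hepatocyte genes passed for the interaction, and all 15 had a positive sign, with a median of 0.79. With libraries paired within status Apoa2, an apolipoprotein gene, was called (1.6, adjusted p = 0.0479), and without replicate 3 in every group Ambp was.

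Fcgr2b, the inhibitory Fc receptor, had values of 43.5, 34.1 and 40.5 in tumor and 16.4, 20.2 and 24.2 in neonatal CD45+ libraries, and 0.124 to 0.445 against 1.06 to 7.25 in the CD45- libraries, so the groups did not overlap on either side. The CD45+ difference did not pass by itself and the CD45- difference did. The interaction was 2.49 ± 0.52 (adjusted p = 0.0251), kept in 5 of 12 fits that left out 1 library, with a highest adjusted p of 0.0974 without neonatal CD45+ replicate 1. It was lost in the fit of the 12 libraries alone, and held without tumor CD45+ replicate 3, neonatal CD45+ replicate 3 or any neonatal CD45- replicate. Anxa2, a membrane-binding annexin, stood at 195, 240 and 114 in tumor and 111, 81.3 and 88.7 in neonatal CD45+ libraries, with 1.23 to 2.14 and 5.01 to 7.74 in CD45- libraries. Its interaction of 2.24 ± 0.45 (adjusted p = 0.018) was kept in 8 of 12 such fits and lost without tumor CD45+ replicate 2, tumor CD45- replicate 3, neonatal CD45+ replicate 2 (adjusted p = 0.0711) or neonatal CD45- replicate 1, and also with a pseudocount of 5. Tmem40, which encodes a transmembrane protein, had values of 18.3, 21.7 and 6.11 in tumor CD45+ libraries, 0.541 to 2.19 in tumor CD45- libraries, and 5.07 to 9.82 in both neonatal groups. Its interaction was 3.13 ± 0.63 (adjusted p = 0.0198), kept in 4 of 12 such fits, each leaving out 1 of the libraries numbered replicate 3, with a highest adjusted p of 0.0736.

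The largest group with a positive interaction was higher in tumor CD45+ cells alone. Lipg, the endothelial lipase gene, had values of 25.9, 48.4 and 6.96 in tumor CD45+ libraries and at most 0.220 in the other 9 libraries. Its interaction was 4.23 ± 0.58 (adjusted p = 0.000801), and it passed the filter through tumor CD45+ libraries alone. Ggt1, an enzyme of glutathione breakdown, stood at 12.1, 33.1 and 6.18 in tumor and 0.510, 1.38 and 0.474 in neonatal CD45+ libraries, with at most 0.0651 in CD45- libraries (interaction 3.09 ± 0.52, adjusted p = 0.00465). In both genes tumor CD45+ replicate 3 was the lowest of its group and still above every neonatal library. Mmp25, a membrane-bound metalloproteinase of neutrophil granules, had values of 15.9, 20.2 and 8.04 in tumor and 3.47, 1.99 and 2.27 in neonatal CD45+ libraries (interaction 2.05 ± 0.39, adjusted p = 0.0115), and was not called without neonatal CD45+ replicate 2 (adjusted p = 0.0524).

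Mmp25 was the only called gene of 13 tested genes of secondary and tertiary neutrophil granules, of which 12 had a positive interaction with a median of 1.14. Lactoferrin (Ltf) had an interaction of 1.19 ± 0.46 (adjusted p = 0.340), with 574, 846 and 641 in tumor and 598, 461 and 464 in neonatal CD45+ libraries, which overlapped. The primary granule genes, which are made earlier in neutrophil formation, had a median of -0.09 over 7 genes, which turned to 0.73 without tumor CD45+ replicate 3, and Mpo stood at -0.18 ± 0.90. All 12 mature neutrophil genes had a positive interaction (median 1.15) and none passed, although Trem1 did without replicate 3 in every group. Of the calgranulins, S100a8 stood at 9329, 10058 and 3412 in tumor and 3276, 2840 and 2667 in neonatal CD45+ libraries, with an interaction of 1.31 ± 1.01 that did not pass. Without tumor CD45+ replicate 3, S100a6 joined Anxa2 among the called calgranulin and annexin genes, with an interaction of 2.95 ± 0.74. Without replicate 3 in all groups, 5 granule genes were called (Cd177, Mmp9, Retnlg, Pglyrp1 and Mmp25), all with a larger contrast. Over all 10618 genes tested in that fit, 481 had a larger and 249 a smaller contrast.

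Il4ra, the interleukin-4 receptor subunit that myeloid suppressor cells carry, had values of 22.4, 40.6 and 28.7 in tumor and 11.2, 12.2 and 19.4 in neonatal CD45+ libraries, and 0.434 to 0.530 against 1.23 to 1.78 in the CD45- libraries. The interaction was 1.80 ± 0.36 (adjusted p = 0.018), lost without tumor CD45+ replicate 2 or neonatal CD45+ replicate 1 or 2 (highest adjusted p 0.0785), or in the fit of the 12 libraries alone. It was the only mediator of the 20 tested with a larger contrast in tumor-bearing mice. Arg1, the arginase of suppressive myeloid cells, had an interaction of -1.07 ± 0.67 (adjusted p = 0.746), Cd274, which encodes PD-L1, 0.43 ± 0.70, and Tgfb1 -0.36 ± 0.34 (adjusted p = 0.943). The 95% interval of the Tgfb1 interaction ran from -1.08 to 0.36. Without replicate 3 in every group 4 mediators had a larger contrast (Lgals3, Il4ra, Stat3 and Pirb) and 3 a smaller one (Arg1, Il10 and Cd80), with Arg1 at -2.17 (adjusted p = 0.0452). Over all 10618 genes tested in that fit, 481 were larger and 249 smaller.

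Genes of lymphocytes and antibody secretion appeared among the rest. Jchain, the joining chain of secreted antibodies and a marker of plasma cells, had values of 63.2, 91.4 and 662 in tumor CD45+ libraries, 0.967 to 4.96 in tumor CD45- libraries and at most 0.266 in neonatal libraries. Its interaction of 5.09 ± 1.07 was the largest called (adjusted p = 0.0255), and the 662 came from replicate 3, the library with the most B cell RNA. Without that library the call was kept, and it was lost in 7 of the 12 fits that left out 1 library: tumor CD45- replicate 2 or 3, neonatal CD45+ replicate 1 or 2, or any neonatal CD45- replicate, with a highest adjusted p of 0.0822. Median-ratio scaling, quantile normalization and leaving out haemoglobin genes also ended the call of the Jchain interaction, with adjusted p of 0.0874, 0.0653 and 0.0516, as did the pairing of libraries within status (adjusted p = 0.0604). None of the 16 tested B cell genes passed, and 15 of them had a positive interaction (median 0.65). When tumor CD45+ replicate 3 was left out, 10 of 16 were positive and the median was 0.17. The 10 MHC class II genes were all positive with a median of 1.28 and none passed. Without that library 9 of 10 were positive with a median of 0.63, and without replicate 3 in every group 3 were called, H2-Aa, Cd74 and Ciita, with 2 B cell genes, Fcer2a and Cr2. All of these were larger in tumor-bearing mice, as were 481 of all 10618 genes of that fit. Dtx1, a regulator of Notch signalling, stood at 6.06, 10.1 and 20.4 in tumor and 0.102, 0.260 and 1.39 in neonatal CD45+ libraries (interaction 2.73 ± 0.54, adjusted p = 0.0163). The Dtx1 call was lost without tumor CD45- replicate 2 or neonatal CD45+ replicate 1 (adjusted p = 0.0765) or 2, and with quantile normalization.

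A pair of other genes of this group had less stable calls. Dmkn, a secreted protein first described in skin, stood at 12.6, 23.8 and 2.45 in tumor and 0.230 to 0.440 in neonatal CD45+ libraries (interaction 2.95 ± 0.61, adjusted p = 0.0227), and was called in 1 of the 9 fits that left out 1 library and could test it, the one without neonatal CD45+ replicate 3 (highest adjusted p 0.0785). A pseudocount of 5, quantile normalization and the fit of the 12 libraries alone ended the Dmkn call. Dmkn reached a value of 1 in tumor CD45+ libraries alone and so had to differ, and no weight rests on its call. Ifitm6, of the interferon-induced transmembrane family, stood at 23.6, 24 and 7.53 in tumor and 3.79, 5.37 and 3.76 in neonatal CD45+ libraries (interaction 2.24 ± 0.52, adjusted p = 0.0427). It was called in 2 of 12 such fits, those without tumor CD45+ replicate 3 or neonatal CD45- replicate 1, with a highest adjusted p of 0.129, and was also lost under other settings, among them a pseudocount of 0.5, quantile normalization and the pairing of libraries within status (adjusted p = 0.0708 for the Ifitm6 interaction). None of the 17 tested interferon-stimulated genes passed, and their median interaction was -0.01, or -0.52 without tumor CD45+ replicate 3.

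The red cell programme itself was not among the called genes. No interaction was called among the 4 adult globin genes (median 0.36), 17 genes of the red cell membrane (0.30), 19 genes of haem and iron metabolism (0.16), 17 erythroid factors and maturation genes (0.01), 34 cell cycle genes (-0.08) or 11 genes of EPO and STAT5 signalling (-0.21). These medians were not stable in sign: without tumor CD45+ replicate 3 that of the cell cycle genes was 0.26, and without replicate 3 in every group those of the globin and membrane genes were -0.15 and -0.17. Single members were called under other settings, Cish (-2.18, adjusted p = 0.043) with libraries paired within status, and Socs2, Mcm3 and Mcm5 without replicate 3 in every group. Klf1, the erythroid Krüppel-like factor, had a contrast of -3.15 in tumor-bearing and -3.36 in neonatal mice, and an interaction of 0.21 with a 95% interval from -0.93 to 1.34. For Hba-a1, an alpha globin gene, the interval ran from -2.27 to 2.98, so a difference of several fold in either direction was not detectable. Globin genes have near-identical copies, and their values are uncertain. Of the 34 cell cycle genes only 1 had an interval within 1 log2 unit of 0. The ribosomal protein genes, 80 in the test, had a median of 0.26 and none passed, while 7 did without replicate 3 in every group. Those 7 had a larger contrast, as did 481 of all 10618 genes of that fit.

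**Figure D4:**
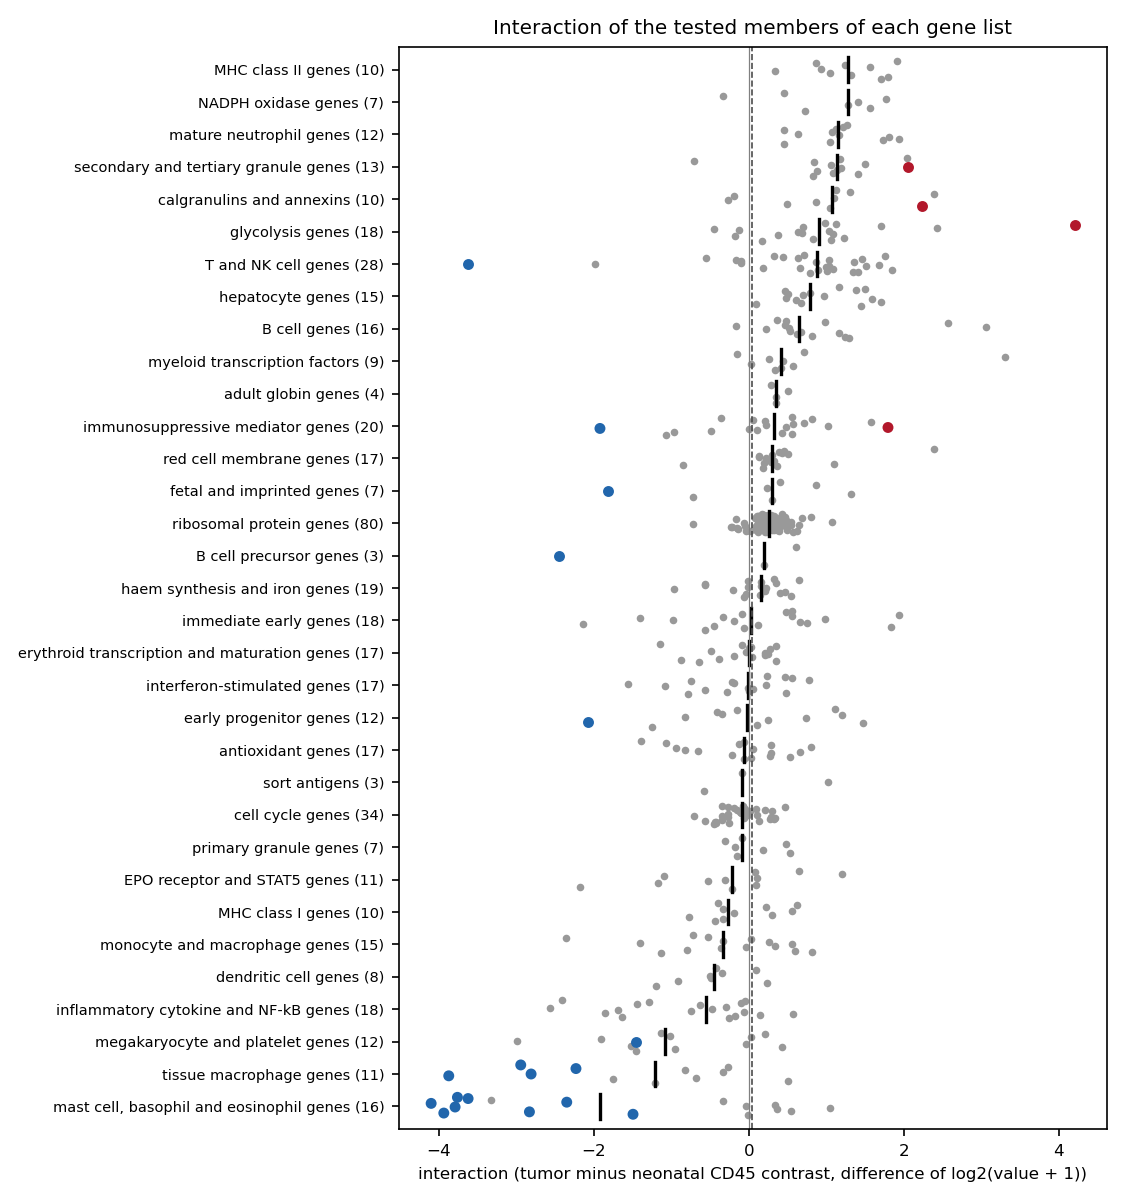
Interaction of each tested member of the gene lists with at least 3 tested genes (number in brackets), ordered by the median, which is the black bar; the dashed line is the median of all tested genes, and coloured points passed at an adjusted p below 0.05. The called genes of the mast cell and macrophage lists lie between -4.10 and -1.49, and most other lists hold no coloured point.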

How the data were processed

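RNA from sorted mouse spleen cells was sequenced. The authors deposited 1 table of log2 values per gene and library, with the scale not named. The submitters' processing notes name the aligner Bowtie (version 0.12.2) and the mouse build mm8. How reads were counted and normalized is not given in the sources used here, so read depth is unknown and no counting error can be given. Blank cells (7.90% of the table) were read as a value of 0 after unlogging. No gene coordinates are used from the table, and promoter sequences come from RefSeq GRCm38.p6.

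Values were unlogged and analysed as log2(value + 1), since the pseudocount of 1 limits the weight of low values; fold changes of low genes are understated on this scale. Genes that reached a value of 1 in fewer than 3 of 18 libraries were left out, and 11195 remained. limma 3.58.1 (R 4.3.3, statmod 1.5.0) was fitted with a mean per group to the 18 Ter119+CD71+ libraries, trend and robust on. Libraries of anemic mice entered only the low-value filter and the estimate of the spread. Tests were two-sided, with Benjamini-Hochberg adjustment over all tested genes and a threshold of 0.05. The fit was tested on simulated data. Within each status, same-numbered CD45+ and CD45- libraries deviated together from their group means (correlation 0.11 to 0.36 in all 6 pairs, against -0.27 to 0.14 in 12 differently numbered pairs), so a fit with a block for each status and number was added after seeing the data. Alternatives were other pseudocounts, filters, scalings, fits and left-out libraries.

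The comparison and the gene lists were chosen with earlier results of these data known. Genes named in the text were the 15 largest interactions in each direction among called genes with a mean of at least 10 in a group (histone genes, clone or locus-number symbols and date symbols left out), up to 4 called members of each list by smallest adjusted p, and Ptprc, Tfrc and globin genes. Up to 6 genes with opposite called contrasts were to be named under the same limits as the 15, and 0 met them. Other genes, including list members named without a call, were chosen after their values were seen. A gene that this rule names is not reported here.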

Additional observations from a re-analysis of the deposited data

Results flagged for a closer look

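The 121 genes with a called interaction are differences between the effects of 1 contrast in 2 statuses, each tested by the interaction term in limma. Among the genes reported here, the log2 interactions of those with a larger contrast in tumor-bearing mice were 5.09 for Jchain, 4.23 for Lipg, 4.21 for Slc2a1, 3.13 for Tmem40, 3.10 for Chd7, 3.09 for Ggt1, 2.95 for Dmkn, 2.89 for C3, 2.73 for Dtx1, 2.49 for Fcgr2b, 2.24 for Ifitm6 and for Anxa2, 2.19 for Tspan32, 2.14 for Pde2a, 2.05 for Mmp25 and 1.80 for Il4ra. The log2 interactions of those with a smaller contrast were -4.10 for Mcpt4, -3.93 for Cma1, -3.87 for Clec4f, -3.79 for Epx, -3.76 for Tpsb2, -3.62 for Prg3 and for Gzma, -3.60 for Dmpk, -3.15 for Adgb, -3.09 for Folr2, -2.94 for Vsig4, -2.92 for Alox15, -2.83 for Cpa3, -2.81 for Marco, -2.68 for Colec12, -2.45 for Igll1, -2.35 for Mcpt8, -2.23 for Timd4, -2.07 for Gata2, -1.92 for Il10 and -1.82 for Igf2bp3.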

How the results depend on the processing

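No called gene reversed its direction under any of the settings tried. Over the 38 named called genes and the alternatives that could test them, 797 values kept the call, 133 lost it and 0 reversed. Of the 121 called genes, 11 with a larger and 25 with a smaller contrast in tumor-bearing mice passed in all 12 fits that left out 1 library. Another 26 of the 121 could not be tested in some of these 12 fits, so they could not pass in all. Against 121 called interactions, there were 233 with no filter on low values, 68 with the filter at 5, 70 in the fit of the 12 libraries alone, 1230 with limma's array weights, 42 among genes with a value in all 12 libraries, 730 without replicate 3 in every group, and 43 to 395 without single libraries. Between the CD45+ groups 740 genes differed, against 1238 with no filter, 370 with the filter at 5, 2132 with array weights, 423 among genes with a value in all 12 libraries, 2022 without replicate 3 in every group and 429 to 1136 without single libraries. Between the CD45- groups 284 differed, against 581 with no filter, 149 with the filter at 5, 2739 with array weights, 168 among genes with a value in all 12 libraries, 1483 without replicate 3 in every group, 145 at a pseudocount of 5, 468 with median-ratio scaling and 155 to 374 without single libraries. The filters and left-out libraries change how many genes or samples are tested, and otherwise the cause was not tested. With a replicate block over all statuses 141 interactions were called, 66 larger and 75 smaller, 116 of them among the 121, and Timd4 and Ifitm6 were lost. Over all 4 groups same-numbered libraries correlated at 0.03 to 0.39 (median 0.17) in 18 pairs, 13 of them above 0.1. Differently numbered ones correlated at -0.32 to 0.26 (median -0.15). The highest value, 0.39, lay across statuses, between tumor and neonatal CD45+ replicate 3. Same-numbered libraries thus also deviated together across statuses, which the main fit does not model and the block over all statuses does. What the replicate 3 libraries share was not tested. With the replicate block within status, which cannot test the CD45+ and CD45- sides, 114 were called, and of the named genes Jchain, C3, Ifitm6 and Il10 were lost and no other. With 3 libraries a group, and no read counts, differences under about 1 log2 unit were mostly not detectable.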

Other observations

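The 121 genes were also measured in libraries outside the groups compared. In CD11b+Gr1+ myeloid-derived suppressor cells of tumor-bearing mice, the mean was above that of tumor CD45+ cells for 38 of the 57 genes with a larger contrast and for 12 of the 64 with a smaller one (66.7% and 18.8%, against 32.7% of all tested genes). Lipg had values of 56.1, 87.3 and 115 in these cells, Ggt1 33.2, 68.2 and 24.9, Mmp25 32.4, 47.9 and 33.4, and Anxa2 355, 348 and 372. Jchain went the other way, at 2.85, 6.73 and 22.2. Clec4f was listed at 0 in all 3. Genes chosen partly by their tumor CD45+ values are not a fair sample for these counts, since those libraries enter them.

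In CD45+Ter119+CD71+ cells of anemic mice the picture differed by gene. The CD45 contrast of anemic mice lay nearer to that of tumor-bearing than of neonatal mice for 55 of the 64 genes with a smaller contrast and for 34 of the 57 with a larger one (85.9% and 59.6%, against 56.4% of all tested genes). Genes chosen for a gap between tumor and neonatal libraries are not a fair sample for this count, since those libraries enter it. Slc2a1 stood at 12.2, 13 and 13.8 in CD45+ and 0.0458 to 0.374 in CD45- cells of anemic mice, the layout seen in tumor-bearing mice. Chd7 did the same, at 30.5, 31.9 and 37.9 against 0.253 to 0.355. Lipg had values of 0.140 to 0.754 in anemic CD45+ cells, and Inhba, an activin subunit chosen after its values were seen, 0.447 to 0.713 against 18.9, 15.6 and 6.74 in tumor CD45+ cells. These values are descriptions, with no test of the difference.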
